A study of Homo sapiens with 120 samples.

Results

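Expression of a lncPRESS1 form labelled DATG was compared with the vector in H1 human embryonic stem cells at the middle stage of a gain-of-function series. The comparison was chosen by sample title, middle_OE_lncPRESS1DATG against middle_OE-vector, and holds 4 of the 120 RNA-seq libraries of the study, 2 per group with the letters a and b. H1 is an established human pluripotent line. The titles mark overexpression with OE, and the series design text describes gain of function at an early, an intermediate and a late stage, without naming days or culture conditions for them. The design text uses ΔATG for cells that lack a start codon. The remaining overexpression groups are vector, lncPRESS1, lncSIRP and lncPRESS1DATG at each of the 3 stages, and what lncSIRP is was not given in the sources used here. The other 96 libraries come from differentiation experiments and were not analysed here. Every group used below is in H1 cells. The labels name neither the promoter that drives each construct, nor whether a line is a clone or a pool, nor whether a and b are separate cultures. The p-values therefore measure only the spread between libraries of the same group, which may be technical. That spread was estimated over all 24 overexpression libraries and not only the 4 compared. All samples are bulk RNA, in which fewer cells of a type and less RNA per cell cannot be told apart.

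LncPRESS1 is a long non-coding RNA of human pluripotent cells that has been described as p53-repressed and as interacting with the deacetylase SIRT6. Nodal, a TGF-beta family ligand, acts through activin receptors, the co-receptor TDGF1 and the effectors SMAD2, SMAD3 and SMAD4 together with the DNA-binding partner FOXH1. In pluripotent cells this pathway helps to sustain NANOG, and stronger signalling drives the primitive streak program from which mesoderm and definitive endoderm arise. Its targets include its own ligand and its secreted antagonists LEFTY1, LEFTY2 and CER1, so that the pathway regulates itself.

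The start codon is shown first because the construct is defined by its absence. LNCPRESS1 (ENSG00000232301) lies on the plus strand of GRCh38 at chr7:101299578-101301346. The reference transcript ENST00000429254.2 is 867 bases long and holds 13 ATG triplets. Its longest open reading frame runs from base 348 to base 737 and has 129 codons before the stop, against 25 for the next longest. A window of 120 bases, from base 308 to base 427 of this transcript, is given 5′ to 3′ with the ATG of that frame in capitals.
LNCPRESS1 window: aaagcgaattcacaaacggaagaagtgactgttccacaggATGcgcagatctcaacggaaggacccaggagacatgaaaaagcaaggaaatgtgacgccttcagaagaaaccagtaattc
The labels do not say which ATG was removed, and counts per gene do not separate the transcript with a start codon from the one without.

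Promoters of 6 Nodal pathway genes, the ligands NODAL and GDF3 and the 4 transcription factor and antagonist genes CER1, EOMES, GSC and MIXL1, were searched because FOXH1 is the pathway's DNA-binding partner, and all 6 are shown, with and without a match. They were chosen with their values known. The sequences are from RefSeq (GRCh38.p14), run from 250 bases before to 50 bases after the start site, and carry in capitals each match to TGTNNATT, a FOXH1 motif searched on both strands.
CER1, chr9:14722684-14722983, minus strand: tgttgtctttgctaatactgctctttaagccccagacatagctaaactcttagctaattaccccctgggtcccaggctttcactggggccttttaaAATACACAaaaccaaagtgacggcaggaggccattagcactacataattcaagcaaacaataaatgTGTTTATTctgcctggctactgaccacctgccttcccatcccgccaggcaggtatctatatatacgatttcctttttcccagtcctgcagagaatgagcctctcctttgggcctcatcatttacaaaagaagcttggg
EOMES, chr3:27722274-27722573, minus strand: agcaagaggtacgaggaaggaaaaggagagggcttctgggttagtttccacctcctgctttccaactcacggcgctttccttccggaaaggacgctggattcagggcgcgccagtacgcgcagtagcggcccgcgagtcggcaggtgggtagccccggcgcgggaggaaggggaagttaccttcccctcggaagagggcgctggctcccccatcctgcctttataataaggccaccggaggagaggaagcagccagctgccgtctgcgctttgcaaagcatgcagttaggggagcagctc
GSC, chr14:94770064-94770363, minus strand: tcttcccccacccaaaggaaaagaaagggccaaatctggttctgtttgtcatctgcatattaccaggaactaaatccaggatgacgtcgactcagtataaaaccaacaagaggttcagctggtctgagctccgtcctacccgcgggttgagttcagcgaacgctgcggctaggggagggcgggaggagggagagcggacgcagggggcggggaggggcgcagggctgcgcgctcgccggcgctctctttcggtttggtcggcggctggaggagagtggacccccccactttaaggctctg
MIXL1, chr1:226223414-226223713, plus strand: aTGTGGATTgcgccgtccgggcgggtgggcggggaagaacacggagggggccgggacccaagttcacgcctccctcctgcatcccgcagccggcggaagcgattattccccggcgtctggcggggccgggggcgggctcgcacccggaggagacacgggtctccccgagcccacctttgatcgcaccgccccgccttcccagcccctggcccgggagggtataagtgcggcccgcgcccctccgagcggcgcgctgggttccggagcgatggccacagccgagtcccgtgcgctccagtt
GDF3, chr12:7695726-7696025, minus strand: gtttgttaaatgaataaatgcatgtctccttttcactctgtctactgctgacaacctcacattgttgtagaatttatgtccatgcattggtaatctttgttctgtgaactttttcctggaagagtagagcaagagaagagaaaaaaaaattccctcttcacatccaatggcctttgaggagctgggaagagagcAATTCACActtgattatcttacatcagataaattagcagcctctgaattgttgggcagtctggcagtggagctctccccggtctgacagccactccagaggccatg
NODAL, chr10:70441632-70441931, minus strand: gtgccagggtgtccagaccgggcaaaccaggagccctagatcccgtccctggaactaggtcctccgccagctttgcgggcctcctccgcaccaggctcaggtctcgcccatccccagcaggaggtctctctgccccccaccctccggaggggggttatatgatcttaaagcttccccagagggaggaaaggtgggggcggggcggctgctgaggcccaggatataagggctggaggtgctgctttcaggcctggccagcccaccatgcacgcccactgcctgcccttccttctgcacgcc
The CER1 window holds 2 matches, those of MIXL1 and GDF3 hold 1 each, and those of NODAL, EOMES and GSC hold 0. The windows of WNT3, TBXT, FOXC1, SOX3 and CNTN2, also searched, hold 0 as well. Of all 35116 promoter windows of this length, 3872 (11%) hold at least 1 match. In the same 6 windows the SMAD motif GTCTAGAC and the T-box motif AGGTGTGA had 0 matches, and the TCF/LEF motif CTTTGA had 1 each in MIXL1 and GDF3. These 3 motifs occur in 0.202%, 0.98% and 12.9% of all windows. A match is a run of letters and not a measured binding site.

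LNCPRESS1 was higher in both middle libraries labelled lncPRESS1DATG than in both vector libraries. Its level was 47.8 and 36.3 CPM (counts scaled to the library total) in vector a and b and 87.8 and 133 CPM in DATG a and b. The groups did not overlap, and the 2 DATG libraries differed from each other by more than the 2 vector libraries did. The log2 fold change was 1.39 ± 0.21 (standard error), a 2.62-fold rise (adjusted p = 0.000513, edgeR quasi-likelihood test with Benjamini-Hochberg adjustment). With only the 4 libraries compared in the fit, the adjusted p was 0.0507. The rise was 2.34 on the log2 scale at the early stage, from 29 and 30.2 CPM to 144 and 156 CPM, and 2.24 at the late stage, from 32.9 and 32.6 CPM to 154 and 156 CPM. The middle rise differed from the early one by -0.95 ± 0.29 (adjusted p = 0.0592, edgeR) and from the late one by -0.85 (adjusted p = 0.152, edgeR), so neither difference passed the threshold in this fit. The difference from the early stage passed with the DESeq2 Wald test (adjusted p = 0.0121), and by edgeR without the filter on low counts (adjusted p = 1.4e-05) and without middle DATG b (-1.24, adjusted p = 0.0146). That from the late stage passed by edgeR without the filter (adjusted p = 0.000339) and without middle DATG b (-1.18, adjusted p = 0.0488). EMSLR, the neighbouring non-coding gene at chr7:101308346-101310985, had 60.1 and 52.4 CPM in vector and 67.4 and 78.4 CPM in DATG (adjusted p = 0.103, edgeR).

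The labels of other groups were less plain. LNCPRESS1 stood at 32.3 and 53.8 CPM in the early libraries labelled lncPRESS1, and at 185 and 133 CPM in the early libraries labelled lncSIRP. In the middle libraries labelled lncPRESS1 it stood at 55.1 and 58.6 CPM, little above the vector libraries. The 4 middle libraries labelled lncPRESS1 or lncSIRP also stood apart from all others: on the first principal component, with 54.6% of the variance, they lay at 215.3 to 220.6 and the other 20 libraries at -72.3 to -13.9. Library totals ran from 40113893 to 65466595 estimated counts, with 50058637 and 60374762 in middle vector a and b and 59750644 and 56116930 in middle DATG a and b. Markers of pluripotent cells were high in all 4 middle libraries compared, with POU5F1 at 1630 to 2330 CPM and SOX2 at 214 to 261 CPM.

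**Figure D1:**
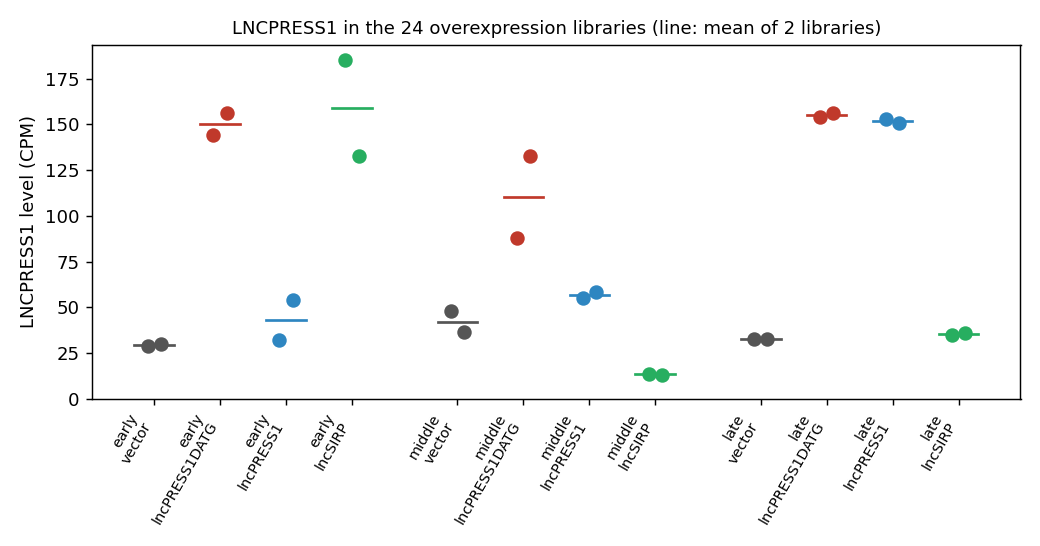
LNCPRESS1 level in CPM in each of the 24 overexpression libraries, by construct and stage, with 1 point per library. The middle DATG libraries sit at 87.8 and 133 CPM, above both middle vector libraries at 47.8 and 36.3 CPM and below the early and late DATG libraries at 144 to 156 CPM.

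In the middle DATG libraries 470 genes rose and 806 fell against vector, of 23300 tested (called at an adjusted p under 0.05, edgeR). That is 5.48% of the genes called in either direction, 2.02% called higher and 3.46% called lower. At least a 2-fold difference was seen in 644 of the called genes, and the median log2 fold change over all genes tested was -0.006. The count moved with the libraries fitted: it was 401 when only the 4 libraries compared were fitted and 1862 without the early stage. It was also lower without either vector library. The genes below are those with the largest differences and, by role, members of pathway lists. Where no exception is given, each kept its call without any 1 of the 4 libraries. With only the 4 libraries compared in the fit, 53 of the genes examined lost the call and 90 kept their result, called or not. NANOG (adjusted p = 0.0707), GDF3 (0.0647), GATA4 (0.101) and CXCR4 (0.118) were among the 53, by edgeR. In that fit 8 Nodal, 8 streak, 4 BMP and 1 imprinted gene fell. The neuroectoderm list then had 3 rising and 0 falling genes.

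Ligands, antagonists and target genes of the Nodal pathway were among the genes that fell. Of the 20 listed members, 10 fell, 0 rose and 10 were not called, with a median log2 fold change of -0.96, against -0.006 over all genes. The count of falling members was 9 or 10 without any 1 library.

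Among the ligands, NODAL stood at 116 and 111 CPM in vector and at 13.5 and 18.1 CPM in DATG. It fell by 2.85 ± 0.30 on the log2 scale, or 7.19-fold (adjusted p = 1.53e-05, edgeR). GDF3, a ligand that acts with Nodal, stood at 48.3 and 67.5 CPM in vector and at 21.7 and 10.4 CPM in DATG. For both ligands every DATG library lay below every vector library, and GDF3 fell by 1.85 ± 0.24 (adjusted p = 0.000117, edgeR).

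The secreted antagonists were lower in DATG too. CER1, at chr9:14719724-14722717 on the minus strand, binds Nodal and BMP ligands. Its level was 34.5 and 31.6 CPM in vector and 0.788 and 0.925 CPM in DATG, a 38.4-fold fall (-5.26 ± 0.31, adjusted p = 3.19e-08, edgeR). LEFTY1, which blocks Nodal at its co-receptor, stood at 78.2 and 61.6 CPM in vector and at 6.48 and 9.99 CPM in DATG, 8.48-fold lower (adjusted p = 0.000256, edgeR). LEFTY2, its neighbour and paralog, stood at 27.6 and 22.2 CPM against 6.0 and 7.53 CPM, 3.67-fold lower (adjusted p = 0.000763, edgeR). The 2 LEFTY genes are close in sequence, so reads may be divided between them.

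Transcription factors that Nodal signalling induces fell as well. EOMES, the T-box factor that starts the mesendoderm program, at chr3:27715949-27722711 on the minus strand, went from 9.78 and 7.94 CPM to 0.37 and 0.235 CPM (-4.86 ± 0.27, adjusted p = 3.19e-08, edgeR). These are levels close to the detection limit in DATG, and the vector levels themselves are small beside that of POU5F1. MIXL1, a homeobox factor of the streak, went from 21.1 and 16 CPM to 1.27 and 1.98 CPM, and GSC, the organizer homeobox factor, from 2.8 and 2.01 CPM to 0.193 and 0.22 CPM. MIXL1 fell by 3.51 ± 0.43 and GSC by 3.53 ± 0.37 on the log2 scale, and neither gene overlapped between the groups.

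The inhibitory SMAD7, itself induced by TGF-beta family signals, fell 2.24-fold, from 55.5 and 62.2 CPM to 27.1 and 25.4 CPM (adjusted p = 4.58e-06, edgeR). The effector SMAD3 stood at 51.0 and 45.4 CPM against 30.4 and 26.6 CPM (log2 fold change -0.76, adjusted p = 0.00352, edgeR). Its call was lost without vector a (-0.67, adjusted p = 0.0532) and without DATG b (-0.63, adjusted p = 0.0501) in the same edgeR test. The 5 other receptor and transducer genes given here did not pass the test. TDGF1 had 633 and 630 CPM in vector and 490 and 570 CPM in DATG, and FOXH1 had 168 and 146 CPM and 116 and 158 CPM. SMAD2 had 72.6 and 69.4 CPM in vector and 74.3 and 73.3 CPM in DATG, SMAD4 had 73.2 and 63.6 CPM and 70.8 and 73.8 CPM, and ACVR2B had 162 and 172 CPM and 160 and 140 CPM. For these 5 genes the adjusted p ran from 0.453 to 0.805 (edgeR), which does not show that they were equal.

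**Figure D2:**
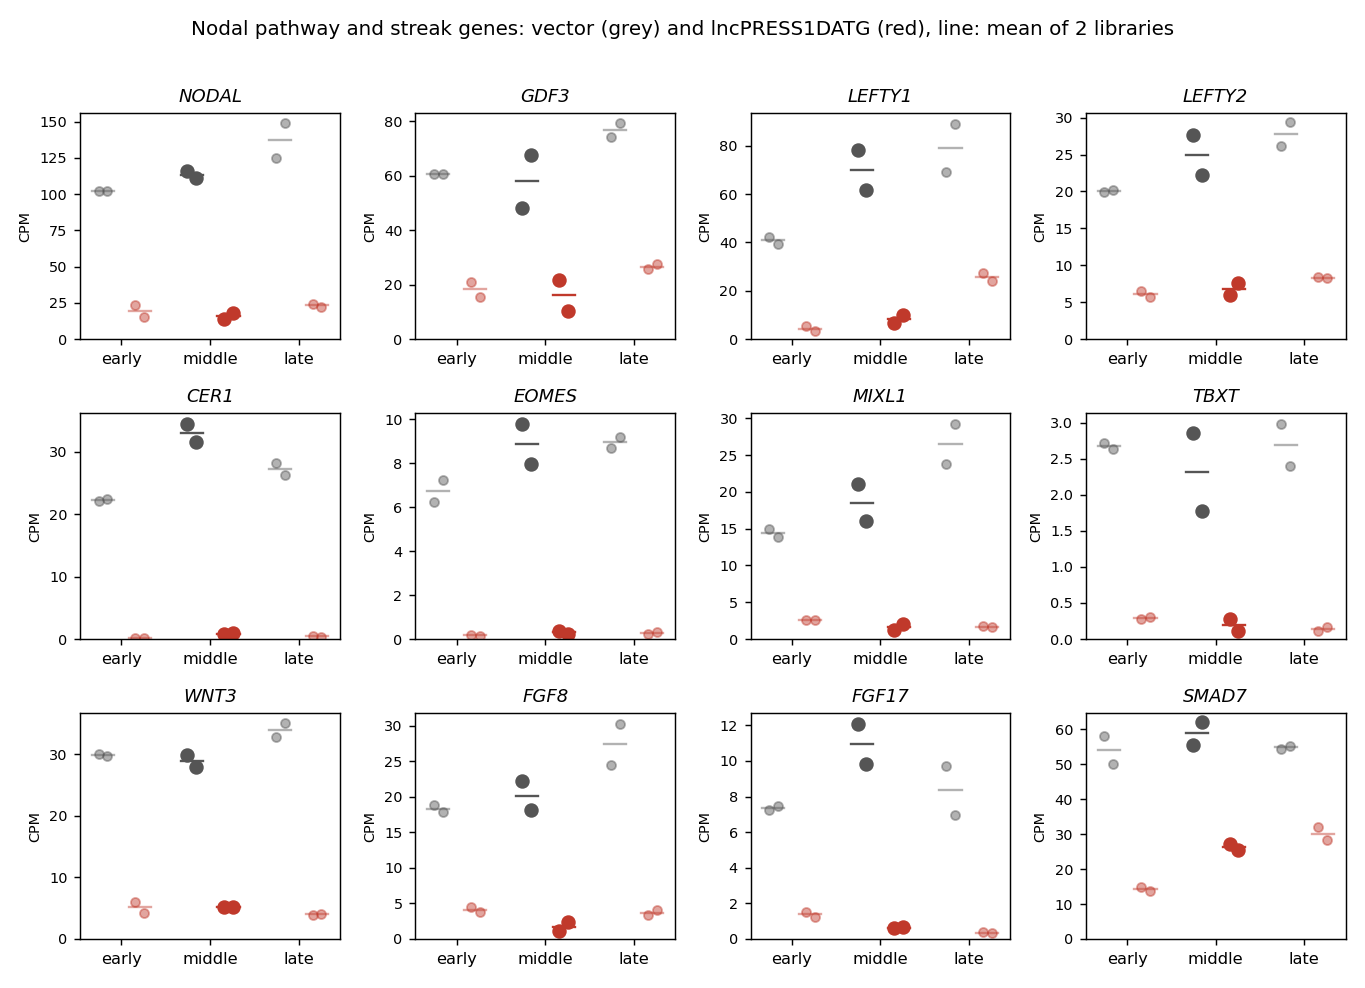
Levels in CPM, on linear axes from 0, of 12 Nodal pathway, streak and signalling genes in the vector and DATG libraries of the 3 stages, with 1 point per library. NODAL, CER1, EOMES and MIXL1 in the middle DATG libraries lie below both middle vector libraries, as do the other genes drawn.

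Primitive streak genes followed the Nodal targets, and the lists share EOMES, GSC and MIXL1. Other lists overlap too: FGF17 is in the streak and FGF lists, DKK4 in endoderm and Wnt, FGF4 in pluripotency and FGF. FN1, HEY1 and TFAP2A are also shared between lists. The list counts are therefore not independent of each other. Of 17 streak genes 11 fell and 0 rose, with a median log2 fold change of -2.98. The count was 9 or 10 without any 1 library. TBXT, the brachyury factor of the streak and early mesoderm, had 2.86 and 1.78 CPM in vector and 0.273 and 0.11 CPM in DATG, a 12-fold fall (adjusted p = 3.25e-05, edgeR). LHX1, a LIM homeobox factor of anterior mesendoderm, went from 6.03 and 5.13 CPM to 0.627 and 0.925 CPM (-2.84 ± 0.41). EVX1 was counted among the 11, but stood at 0.055 and 0.0629 CPM in vector and at 0 in DATG, near the limit of detection. The EVX1 call was lost without any 1 library (adjusted p = 0.121 without vector a, 0.168 without vector b, 0.147 without DATG a and 0.15 without DATG b, edgeR).

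Definitive endoderm genes were among the deepest falls. Of 25 genes 11 fell and 0 rose, with a median log2 fold change of -1.22. With only the 4 libraries compared in the fit, 8 of 23 fell and 1 rose. The median was -1.56 to -0.77 with 1 library left out. SOX17, the endoderm SRY-box factor, had 3.59 and 2.6 CPM in vector and 0 counts in both DATG libraries, at least 64.9-fold lower against a floor of 3 counts per library. DKK4, a secreted Wnt antagonist, had 1.34 and 1.35 CPM in vector and 0 counts in DATG, at least 28.2-fold lower. GATA6, a GATA factor of primitive and definitive endoderm, went from 3.5 and 3.04 CPM to 0.0483 and 0.0627 CPM, and FOXA2, a forkhead factor of endoderm, from 6.5 and 4.85 CPM to 0.129 and 0.267 CPM. Both passed the test in each library left out, with log2 fold changes of -5.82 ± 0.35 and -4.82 ± 0.39. GATA4 fell by 2.47 ± 0.31 and the chemokine receptor CXCR4, a surface marker of definitive endoderm, by 2.23 ± 0.34. The summed level of all 25 endoderm genes did not separate the groups, at 224 and 226 CPM in vector and 266 and 182 CPM in DATG, since abundant members that were not called carry most of it.

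Mesoderm genes moved less as a list, with 6 of 25 falling, 1 rising and a median of -0.29. The falling count was 4 without vector a, DATG a or DATG b and 3 without vector b. FOXC1, a forkhead factor of paraxial mesoderm, fell 7.92-fold from 7.11 and 5.77 CPM to 0.901 and 0.721 CPM, and TBX3 fell 8.13-fold from 3.99 and 4.29 CPM to 0.547 and 0.47 CPM. NKX2-5 was also called at a level near detection, 0.238 and 0.173 CPM against 0 and 0.0157 CPM. That call was lost without any 1 library (adjusted p = 0.143 without vector a, 0.0776 without vector b, 0.164 without DATG a and 0.0813 without DATG b, edgeR). TCF15 was the member that rose, from 3.41 and 4.22 CPM to 7.71 and 6.04 CPM. Its call was lost without vector a (adjusted p = 0.265), vector b (0.075) or DATG a (0.18) in the same edgeR test.

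The ligands that induce the streak were lower too. WNT3, the Wnt ligand that acts upstream of TBXT, stood at 29.9 and 27.9 CPM in vector and 5.23 and 5.16 CPM in DATG. The 2 groups were each tight, and WNT3 fell by 2.48 ± 0.18 (adjusted p = 3.03e-07, edgeR). SP5, a direct Wnt target, went from 5.73 and 3.76 CPM to 0.901 and 0.298 CPM. Of 25 Wnt genes 8 fell and 2 rose, with a median of -0.54. With only the 4 libraries compared in the fit, 3 of 24 fell and 2 rose. The median was -0.66 to -0.3 with 1 library left out. FZD5, a receptor, went from 205 and 198 CPM to 102 and 65.3 CPM. The 2 that rose were the secreted antagonist SFRP1, from 45.7 and 57.1 CPM to 294 and 213 CPM (2.30 ± 0.30, adjusted p = 0.000113, edgeR), and the receptor FZD7, from 119 and 139 CPM to 236 and 231 CPM. AXIN2, a common readout of canonical Wnt signalling, had 43.4 and 36.3 CPM in vector and 25.7 and 44.8 CPM in DATG and was not called.

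FGF ligands of the streak fell while most of the list did not pass the test. Of 21 FGF and ERK genes 7 fell and 1 rose, and the median was -0.08. With only the 4 libraries compared in the fit, 3 of 21 fell and 0 rose. FGF17 went from 12.1 and 9.85 CPM to 0.611 and 0.659 CPM (-4.10 ± 0.39, adjusted p = 5.39e-06, edgeR), FGF8 from 22.2 and 18.1 CPM to 1.14 and 2.32 CPM, and FGF4 from 13 and 12.5 CPM to 3.99 and 4.66 CPM. Among feedback inhibitors of ERK, SPRY2 had 69.9 and 71.8 CPM in vector and 49.8 and 51.6 CPM in DATG (-0.48, lost without vector b at adjusted p = 0.0653, edgeR), and DUSP6, not called, had 138 and 165 CPM and 258 and 185 CPM. DUSP4 was the member that rose (0.62), and its call was lost without vector a (adjusted p = 0.0996), vector b (0.137) or DATG b (0.134) in the edgeR test.

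BMP ligands were also lower, with 8 of 22 BMP pathway genes falling, 0 rising and a median of -0.27. The falling count was 5 without vector a, vector b or DATG b. BMP4 went from 6.5 and 6.51 CPM to 2.72 and 2.95 CPM (-1.20 ± 0.12, adjusted p = 1.1e-05, edgeR), and BMP7 from 58.1 and 55.9 CPM to 29.5 and 27.1 CPM. ID1, a direct BMP target and inhibitor of bHLH factors, fell 2.15-fold, from 81.9 and 79.9 CPM to 34.6 and 40.8 CPM. The related ID3, at 105 and 80 CPM in vector and 105 and 164 CPM in DATG, was not called (adjusted p = 0.0534, edgeR).

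Pluripotency genes did not share a direction. Of 26 pluripotency genes 6 fell and 3 rose, and the median was -0.09. The falling count was 3 without vector b and 4 without DATG b, and the rising count was 1 without vector a. The summed level was 13700 and 14900 CPM in vector and 15200 and 14300 CPM in DATG. NANOG, which activin and Nodal signalling sustains, fell 1.5-fold, from 393 and 369 CPM to 259 and 250 CPM (adjusted p = 0.000163, edgeR). POU5F1 stood at 2190 and 2330 CPM against 1860 and 1630 CPM, and its call (-0.37 ± 0.08) was lost without vector b (adjusted p = 0.0944) or DATG b (0.0881) in the edgeR test. SOX2 was not called (214 and 261 CPM in DATG, 256 and 254 CPM in vector). LINC-ROR, a non-coding RNA of pluripotent cells, fell 5.45-fold, from 24.5 and 32.0 CPM to 5.34 and 5.05 CPM. PODXL, a surface sialomucin, rose 1.58-fold, from 1040 and 1090 CPM to 1690 and 1660 CPM. USP44 and CD24, the other 2 that rose, lost their calls with libraries left out: USP44 (0.69) without any 1 of the 4, with an adjusted p of 0.071 to 0.222, and CD24 (0.55) without vector a (0.254) or DATG a (0.203), all by edgeR.

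Of 9 tested genes of the naive and 8-cell-like state 3 fell, 0 rose and 6 were not called. The falling count was 2 without vector b and, with 16 genes tested, 5 without the filter. NLRP7 went from 12.6 and 15.4 CPM to 5.87 and 4.72 CPM (-1.40 ± 0.20), and DPPA3, a maternal factor, from 5.95 and 7.46 CPM to 3.27 and 2.02 CPM. DPPA5 (-1.58) lost its call without vector b (adjusted p = 0.0717, edgeR).

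Neuroectoderm genes split. Of 26, 6 rose and 4 fell, with a median of 0.15. These counts were 3 and 2 without vector a or DATG a, 4 and 3 without vector b and 4 and 2 without DATG b. SOX3, a SOXB1 factor of neural progenitors, rose from 5.53 and 5.92 CPM to 19.3 and 17.8 CPM (1.70 ± 0.19, adjusted p = 3.33e-05, edgeR). MAP2, a microtubule protein of neurons, rose from 1.76 and 1.87 CPM to 8.96 and 7.12 CPM. NPTX1, a neuronal pentraxin, rose from 4.54 and 3.32 CPM to 16.4 and 33.0 CPM (2.66 ± 0.25, adjusted p = 5.81e-06, edgeR). Those that fell included the forebrain factor SIX3, whose call was lost without vector a, DATG a or DATG b (adjusted p = 0.105, 0.0742 and 0.0731, edgeR), and ZIC1, from 21.6 and 27.7 CPM to 12.2 and 5.41 CPM. PAX6, the defining neuroectoderm factor, stayed at 0.129 to 0.362 CPM in all 4 libraries and was not called.

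Markers of other cell types did not move together. Among amnion and trophoblast genes 1 of 22 rose and 4 fell, with summed levels of 1440 and 1610 CPM in vector and 1380 and 1270 CPM in DATG. Without vector b 2 fell and 0 rose, and without DATG a 2 rose. KRT7, a keratin of these cells, rose from 4.52 and 4.26 CPM to 7.59 and 8.97 CPM, and lost its call without vector b (adjusted p = 0.0603, edgeR). GATA2 fell from 4.84 and 2.69 CPM to 0.402 and 0.502 CPM. Among fibroblast and matrix genes 2 of 17 rose and 3 fell, with summed levels of 1750 and 1780 CPM in vector and 1760 and 1550 CPM in DATG. The falling count was 1 without vector a, vector b or DATG b, and the rising count was 4 without DATG b. COL1A1, a collagen I chain, rose from 80.3 and 86.0 CPM to 235 and 226 CPM (1.47 ± 0.18), and PDGFRB, a receptor of mesenchymal cells, from 4.96 and 5.57 CPM to 14.6 and 17.6 CPM. COL6A1 fell from 629 and 605 CPM to 324 and 283 CPM. COL3A1, a defining fibroblast collagen, stood at or below 0.113 CPM in all 4 libraries.

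Endothelial and blood genes split, with 2 of 15 rising and 3 falling. Without vector a 1 rose and 1 fell, and 1 rose without vector b or DATG a. TEK, the angiopoietin receptor, rose 3.34-fold, from 7.9 and 8.26 CPM to 27.9 and 26.1 CPM (adjusted p = 1.39e-06, edgeR), and KDR, a receptor for VEGF, fell from 250 and 227 CPM to 164 and 175 CPM. The defining junction gene CDH5 was at 0.055 and 0.142 CPM in vector and 0.692 and 0.423 CPM in DATG, and its call was lost without vector a (adjusted p = 0.249), vector b (0.0624) or DATG a (0.126) in the edgeR test. The part of cell mixture in these values was not tested.

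YAP targets and contractile genes were more often higher than lower, with 5 of 18 rising and 1 falling. The rising count was 3 without vector a or vector b. CCN2, a matricellular YAP target, rose from 25.1 and 20.5 CPM to 74.7 and 90.1 CPM (1.85 ± 0.21, adjusted p = 3.36e-05, edgeR), and CCN1 from 32.6 and 28.9 CPM to 45.4 and 67.7 CPM. AJUBA, at 34.0 and 24.7 CPM in vector and 31.9 and 67.9 CPM in DATG, was not called, and ANKRD1, a defining target, stood at 0 to 0.0916 CPM. ACTG2 (1.55) lost its call without vector a, vector b or DATG b (adjusted p = 0.213, 0.0707 and 0.15, edgeR).

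Of 17 imprinted genes 8 fell and 0 rose, with a median of -0.45, but the falling count was 5 without vector a, 1 without vector b and 2 without DATG b. MEG3, a maternally expressed non-coding RNA, stood at 1.32 and 1.51 CPM in vector and 0.145 and 0.0627 CPM in DATG, and its call was lost without any 1 library (adjusted p of 0.0753 to 0.15, edgeR). PHLDA2 fell from 6.92 and 7.49 CPM to 3.91 and 3.8 CPM. Other lists held fewer calls. Counts of rising and falling genes were 0 and 2 for neural crest, 1 and 2 for Notch, 0 and 2 for epithelial-mesenchymal transition, 0 and 3 for retinoic acid, 0 and 2 for HOX clusters, 0 and 2 for guidance, 0 and 1 for apoptosis, 1 and 1 for immediate early genes and 1 and 0 for hypoxia. Counts this small moved with single libraries. With 1 of the 4 libraries left out, falling genes numbered 0 or 1 for neural crest, 1 for Notch, 0 to 3 for epithelial-mesenchymal transition, 3 to 5 for retinoic acid, 1 or 2 for HOX clusters and guidance and 0 to 2 for apoptosis. Rising hypoxia genes numbered 4 without DATG b and 6 without the filter. Lists of p53 targets, the integrated stress response, sterol synthesis, cell cycle, heat shock, oxidative phosphorylation, mitochondrial transcripts, sirtuins and DNA methylation held 0 called genes in the edgeR test. For sterol synthesis 8 genes were called higher without DATG b and 2 lower without DATG a, and 9 were called higher without the filter on low counts. Of 13 mitochondrial transcripts 11 were called lower without the filter. In the other lists no alternative called more than 3 genes in either direction, and the sirtuin list held 0 calls in each alternative run.

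**Figure D3:**
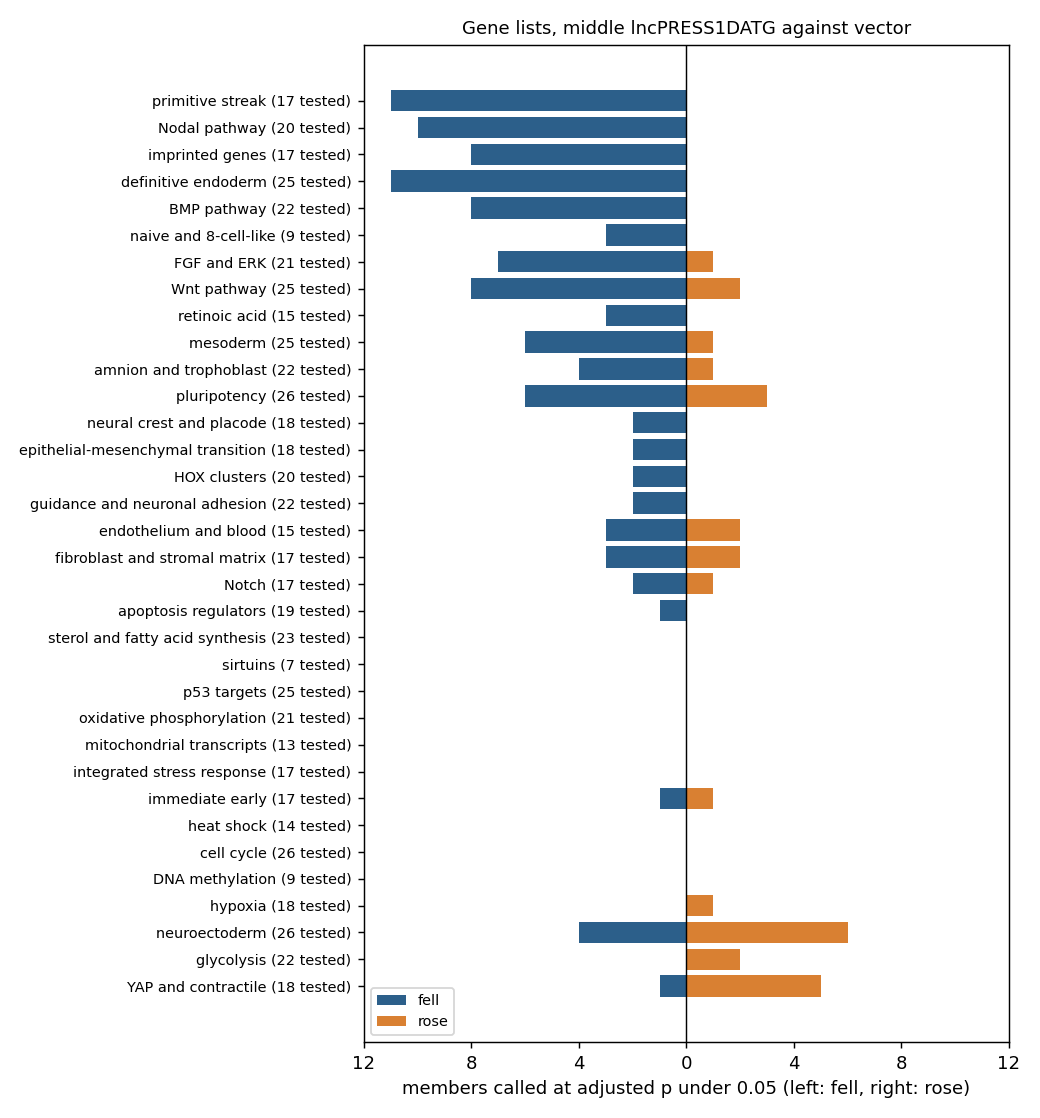
Number of genes called higher or lower in middle DATG against vector in each gene list, as bars from 0. The Nodal list has 10 falling and 0 rising members and the endoderm list 11 and 0, and the neuroectoderm list has 6 rising and 4 falling.

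**Figure D4:**
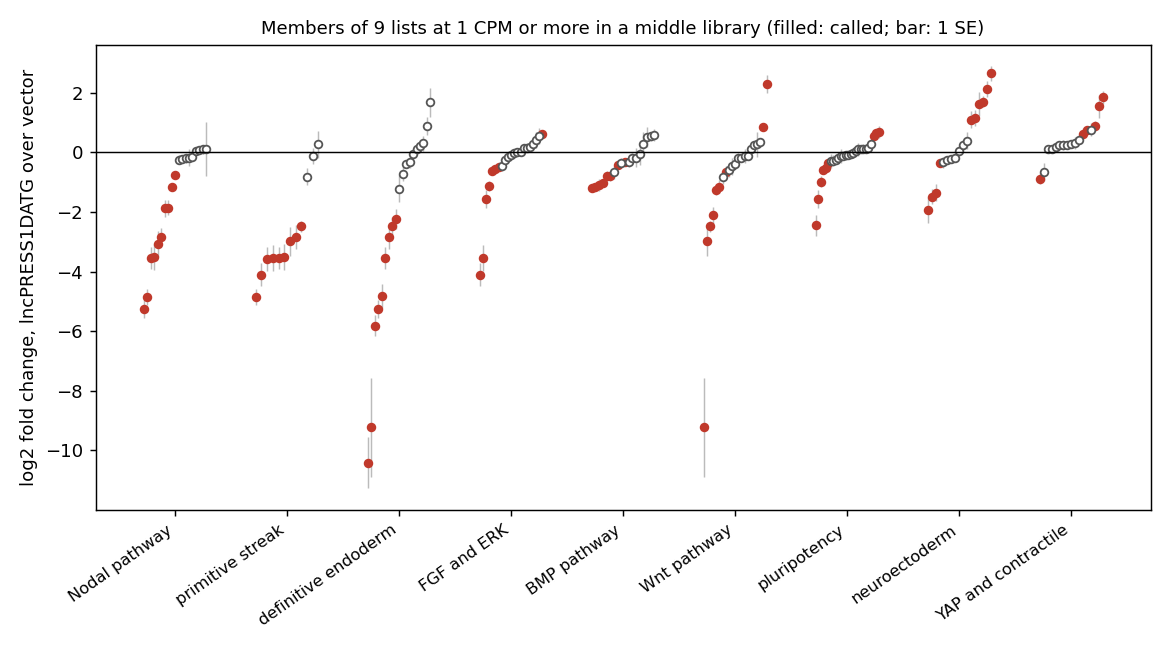
Log2 fold change of middle DATG against vector for members with at least 1 CPM in 9 lists, with called and not called members distinguished. The values of SOX17 and DKK4, drawn near -10.42 and -9.23, rest on 0 counts in DATG and depend on the prior count.

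The 2 DATG libraries differed from each other in metabolic and other genes. Over genes as a whole they differed by more than the 2 vector libraries did. DATG a was the highest of the 4 libraries for 22 of 23 sterol and fatty acid genes and for 21 of 22 glycolysis genes, and the lowest for 15 of 17 genes of the integrated stress response. DATG b was the lowest for 16 of the sterol genes, 20 of 21 oxidative phosphorylation genes and 10 of 14 heat shock genes. The share of all genes tested in these positions is not given here. A trait of these lists can therefore not be told from a general offset of either library. HMGCS1, the cytosolic synthase that feeds the mevalonate pathway, had 215 and 372 CPM in vector and 711 and 184 CPM in DATG, so the DATG libraries lay on both sides of the vector libraries. SLC2A1, the glucose transporter, and HK1, a hexokinase, were the 2 glycolysis genes called, a count that was 0 without vector a or DATG a, 1 without vector b and 6 without DATG b. SLC2A1 (324 and 400 CPM in vector, 852 and 466 CPM in DATG) lost its call without vector a, vector b or DATG a (adjusted p = 0.296, 0.0936 and 0.44, edgeR), and HK1 without vector a (0.202) or DATG a (0.111). For the Nodal, streak and endoderm genes named above as falling, both DATG libraries lay below both vector libraries. They were named because they were called as falling, so this order was close to set in advance and adds no support.

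Outside these lists, SYNDIG1L, chosen by the rule for the highest rises, rose from 1.15 and 1.38 CPM to 10.8 and 5.65 CPM (2.69 ± 0.38), and CNTN2, a neuronal adhesion protein, from 1.34 and 1.18 CPM to 7.43 and 7.73 CPM (2.59 ± 0.31). PDE6G, a phosphodiesterase subunit known from photoreceptors, was tight in both groups, at 5.66 and 5.68 CPM in vector and 32.9 and 32.1 CPM in DATG (2.52 ± 0.14, adjusted p = 3.19e-08, edgeR). PDGFB, a platelet-derived growth factor chain, rose from 5.44 and 5.43 CPM to 23.5 and 31.4 CPM, and MX2, an interferon-inducible GTPase, from 1.72 and 1.51 CPM to 5.87 and 9.21 CPM. DGKK (2.59) and RGS5 (2.03), a regulator of G-protein signalling, rose as well. GABRA2 (2.41) lost its call without vector b or DATG a (adjusted p = 0.144 and 0.0848, edgeR), and PLA2G4C (2.00) without vector b (0.061).

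The deepest falls outside the lists included GRIN1, an NMDA receptor subunit, from 54.9 and 34.0 CPM to 2.61 and 2.27 CPM (-4.19 ± 0.66, adjusted p = 0.000768, edgeR), and IKZF3, a lymphoid zinc finger factor, from 14.2 and 15.4 CPM to 0.643 and 0.941 CPM. RALYL went from 9.6 and 8.59 CPM to 0.74 and 0.596 CPM. IZUMO4 went from 17.8 and 15.5 CPM to 0.354 and 0.329 CPM, and lost its call without DATG a (adjusted p = 0.0554) or DATG b (0.062) in edgeR. LIMCH1 (-3.65) lost its call without the same libraries (0.0596 and 0.0814), and PARVG (-3.90) without any 1 library (0.0548 to 0.119). Values for TMEM256-PLSCR3 (-4.94), a readthrough gene that lost its call without DATG a (0.0525) or DATG b (0.0814), PPIAP46 (-4.12), a pseudogene, and IER3-AS1 (-5.11), which overlaps IER3, are uncertain. IER3 itself fell from 61.9 and 68.3 CPM to 35.4 and 24 CPM.

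The middle effect was set beside those of the early and late stages, each against its own vector libraries. At the early stage 23.2% of the genes were called, 9.03% higher and 14.2% lower. At the late stage 19.9% were called, 9.03% higher and 10.9% lower. Of the 470 genes higher at the middle stage, 254 (54.0%) were called higher early, which is 12.1% of the early list, and 286 (60.9%) late, which is 13.6% of the late list. Of the 806 lower genes, 498 (61.8%) were called lower early and 634 (78.7%) late, which are 15.1% and 25.0% of those lists. Calls in the opposite direction were few, 19 and 4 among the higher genes and 12 and 2 among the lower ones at the early and late stages. All 3 stages called 174 genes higher and 428 lower.

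Of the 20 Nodal list genes 14 fell and 0 rose early, 10 fell and 0 rose at the middle stage, and 11 fell and 1 rose late. Of all genes tested, 14.2% were called lower early, 3.46% at the middle stage and 10.9% late. CER1 had 22.2 and 22.5 CPM in early vector and 0.182 and 0.114 CPM in early DATG, and 28.2 and 26.3 CPM against 0.513 and 0.358 CPM late. NODAL had 102 and 102 CPM against 23.3 and 14.9 CPM early, and 125 and 149 CPM against 24.4 and 22.2 CPM late. EOMES had 6.22 and 7.22 CPM against 0.2 and 0.131 CPM early, and 8.67 and 9.2 CPM against 0.22 and 0.324 CPM late. In the test of the difference the log2 fold change of CER1 was 1.96 higher, that is a smaller fall, at the middle than at the early stage (adjusted p = 0.0434, edgeR), and this call was lost without any 1 of the 8 libraries (adjusted p of 0.0779 to 0.131). Those of NODAL and EOMES were not shown to differ (adjusted p = 0.567 and 0.592, edgeR).

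The difference between the middle and the early effect was called for 6.52% of the genes, 1054 with a higher and 465 with a lower log2 fold change at the middle stage. This count was 2 with only the libraries compared in the fit, 934 without the middle lncPRESS1 and lncSIRP libraries, and moved with every library: 373 without early vector a, 282 without early vector b, 860 without early DATG a, which carries the word Redo in its description, 4443 without early DATG b, 268 without middle vector a, 638 without middle vector b, 571 without middle DATG a and 2437 without middle DATG b. Of the 26 genes given here or in the closing section with a called difference, 8 kept it without any 1 library, NANOG, NPTX1, EGR1 and CYP26A1 among them. NANOG fell from 319 and 345 CPM to 128 and 129 CPM early, by 1.37 against 0.58 at the middle stage, a difference of 0.79 (adjusted p = 0.00179, edgeR). NPTX1 rose less at the middle than at the early stage, where it went from 3.2 and 2.97 CPM to 77.9 and 75.1 CPM (difference -1.98, adjusted p = 0.00594, edgeR). EGR1, an immediate early factor, rose early from 7.33 and 6.12 CPM to 63.8 and 62.0 CPM, whereas its middle values were 1.58 and 1.37 CPM in vector and 2.4 and 3.11 CPM in DATG (difference -2.32, adjusted p = 0.00353, edgeR). CYP26A1, the retinoic acid hydroxylase, fell at the middle stage from 5.86 and 5.03 CPM to 0.997 and 2.02 CPM and was not called early (difference -2.36, adjusted p = 0.00445, edgeR). With only the libraries compared in the fit, NANOG, NPTX1, EGR1 and CYP26A1 lost these calls (adjusted p of 0.077 to 0.16, edgeR). Of 23 sterol genes 10 had a higher middle effect, and 0 a lower one, beside 13 of 23 that fell early and 0 called at the middle stage. The count was 2 without middle DATG a, early vector a or early vector b, 1 without middle vector a, 6 without early DATG a or middle vector b and 20 without middle DATG b. It was 0 with only the libraries compared and 18 without the filter. For HMGCS1 the difference was 1.12 with an adjusted p of 0.192 without middle DATG a (edgeR).

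The difference between the middle and the late effect was called for 1.08% of the genes, 126 higher and 126 lower. This count of 252 was 109 with only the libraries compared in the fit and 97 without the middle lncPRESS1 and lncSIRP libraries. It was 24 without middle vector a, 13 without middle vector b, 455 without middle DATG b, 2 without late vector a, 151 without late vector b, 1 without late DATG a and 13 without late DATG b. None of the 12 genes with a called difference from the late stage kept it without each of the 8 libraries in turn, by edgeR. OTX2, a homeobox factor of the anterior epiblast, had 7.77 and 5.98 CPM in middle vector and 4.87 and 6.02 CPM in middle DATG, and rose late from 7.68 and 8.08 CPM to 18.4 and 21.1 CPM (difference -1.66, adjusted p = 0.0128, up to 0.1 with 1 library left out, edgeR). NPTX1 rose at the middle stage but was not called late, at 3.14 and 3.34 CPM in vector and 5.3 and 4.32 CPM in DATG (difference 2.09, adjusted p = 0.0129, up to 0.1 with 1 library left out, edgeR). PDGFB likewise was not called late, at 5.51 and 4.45 CPM against 3.46 and 2.97 CPM (difference 2.97, adjusted p = 0.0157, up to 0.114 with 1 library left out, edgeR). CHAC1, a stress response gene, had 202 and 164 CPM in middle vector and 98.8 and 196 CPM in middle DATG, and fell late from 124 and 111 CPM to 12.9 and 14.2 CPM (difference 2.80, adjusted p = 0.015, up to 0.113 with 1 library left out, edgeR).

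**Figure D5:**
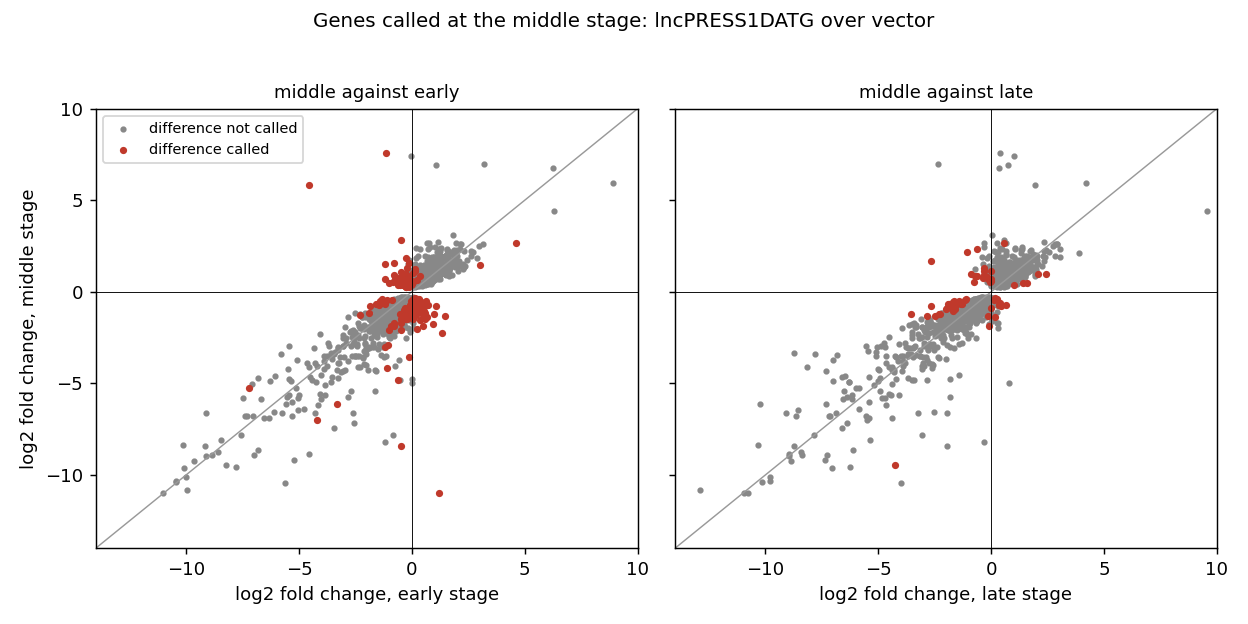
Log2 fold change of DATG against vector at the middle stage (y axis) against the early and the late stage (x axes) for the 1276 genes called at the middle stage, with 1 point per gene. Most points lie on the same side of 0 in both, and 174 of the differences from the early and 63 of those from the late stage are called.

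Against the middle libraries labelled lncPRESS1 the DATG libraries differed in 58.0% of the genes. The lncPRESS1 libraries stood apart from nearly all others and had LNCPRESS1 close to the vector level, so no effect of the start codon is read from this comparison. COL3A1 stood at 2710 and 2690 CPM in them and at 0.113 and 0.0627 CPM in DATG. HAND1, a factor of extraembryonic and heart mesoderm, stood at 474 and 449 CPM and at 0.0483 and 0.0314 CPM, and CDX2, a caudal factor, at 223 and 217 CPM and at 0.0804 and 0.0471 CPM. LCK, on the other hand, had 0.0572 and 0.326 CPM there and 73.8 and 72.1 CPM in DATG. EOMES had 52.9 and 57.1 CPM and CER1 44.6 and 54.5 CPM in the libraries labelled lncPRESS1.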

How the data were processed

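The authors deposited length-scaled estimated counts per gene for 120 libraries and 62703 genes, unit expected count, per the file headers. The build is GRCh38, per the submitters' processing notes (aligner, quantifier and annotation release: not given in the sources used here). Libraries were stranded polyA libraries, per the labels' protocols. Estimated counts were rounded, filtered with filterByExpr (23300 genes kept, at least 99.97% of counts) and scaled by TMM (0.8748 to 1.137). A quasi-likelihood model with 12 groups over the 24 overexpression libraries (12 residual degrees of freedom) was fitted in edgeR 4.0.16 (R 4.3.3), with Benjamini-Hochberg adjustment over all genes and an adjusted p under 0.05 for a call. Standard errors are the absolute log2 fold change over the square root of F. Levels are CPM on TMM-scaled totals, and gene positions are from GENCODE 29. Replicates a and b differed beyond counting noise. The chi-square of the counts per gene was 69.31 between the middle DATG libraries and 19.53 between the middle vector libraries. Over the 12 groups it ran from 7.02 to 73.19, and the fit pools the spread of all 12. Whether the letters pair the samples is not known, and the main fit does not pair them. The 12 highest rises and 12 deepest falls at a mean of at least 1 log2 CPM without overlap, per gene list (34 lists) the 3 called members highest and the 3 lowest in log2 fold change, the 5 each way in the other comparisons, and EOMES, CER1, LNCPRESS1 and EMSLR are named by rule, and further list members by role. One gene that the rule names is not reported here and was taken out of its list. The comparison and the gene lists were chosen with earlier results of these data known. Alternatives were DESeq2 1.42.0 (size factors, Wald test), limma 3.58.1 voom, no filter, other sets of libraries, a replicate block and each library left out. The code was tested on simulated data.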

Additional observations from a re-analysis of the deposited data

Results flagged for a closer look

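For 26 genes the log2 fold change of DATG against vector differed between the middle and the early stage in a test of the difference itself (adjusted p under 0.05, edgeR). These are genes named above or led by the rules for naming, with at least 1 CPM in 1 of the 8 libraries compared. Genes below that level were left out. The values are middle minus early. In signalling and pluripotency genes they were 1.96 for CER1, 0.74 for SMAD7, 0.81 for SMAD4, 0.48 for FZD7, 1.02 for FZD5, 0.93 for SPRY2, 1.77 for DUSP6, 0.79 for NANOG, -0.69 for SOX2 and 0.44 for PODXL. In neural, matrix and guidance genes they were -1.98 for NPTX1, -1.21 for ZIC1, -1.16 for OTX2, -0.68 for COL6A1, -0.73 for FN1 and 0.66 for EFNB2. In sterol genes they were 2.48 for STARD4, 2.39 for HMGCS1 and 2.33 for MSMO1. Retinoic acid genes gave -2.36 for CYP26A1 and -0.5 for CRABP1. The others were 2.82 for ZBED6, 2.35 for ZBTB41, -2.32 for EGR1, -2.24 for FAM20A and -2.03 for DUSP28. Of these, SMAD4, SPRY2, NANOG, NPTX1, COL6A1, ZBED6, CYP26A1 and EGR1 kept the call without any 1 of the 8 libraries. With only the 8 libraries compared in the fit, each of these genes lost it (adjusted p of 0.077 to 0.173, edgeR).

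For 12 genes, chosen in the same way, the difference between the middle and the late stage passed the same test. The values, middle minus late, were -1.53 for PRDM14, 2.09 for NPTX1, -1.66 for OTX2, 2.97 for PDGFB, -1.76 for CYP26A1, 3.7 for MEF2B, 3.15 for INHBE, 3.13 for MVP, 2.8 for CHAC1, -2.01 for MT2A, -1.54 for MED17 and 0.85 for MIR124-1HG. Each lost its call without at least 2 of the 8 libraries, one at a time.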

How the results depend on the processing

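The count of genes called in middle DATG against vector was 2013 without the filter on low counts and 401 with only the libraries compared, 613 to 1129 with each library left out, and within 1.5 times of 1276 with the other tools and sets of libraries. The count of differences from the early stage was 3081 with the DESeq2 Wald test, 2656 without the filter, 2 with only the libraries compared, 934 without the middle lncPRESS1 and lncSIRP libraries (a choice made after seeing the data) and 268 to 4443 with each library left out. The count of differences from the late stage was 1128 with the DESeq2 Wald test, 1190 without the filter, 109 with only the libraries compared, 882 without the early stage, 97 without the middle lncPRESS1 and lncSIRP libraries and 1 to 455 with each library left out. The cause of these changes was not tested. Some fits with fewer libraries called more genes and others called fewer. The comparison with the libraries labelled lncPRESS1 gave 11352 to 14037 genes. The LNCPRESS1 change was 1.4 with only the libraries compared, past the threshold in the other settings, and 1.09 to 1.66 with each library left out. Of 149 genes examined, 116 were called and 51 of these kept the call in all 13 alternatives. None of the 116 was called in the opposite direction in an alternative. Medians of some gene lists did change sign with the library left out. The sterol median log2 fold change was 0.29 in the main fit, -0.21 without middle DATG a and 0.65 without middle DATG b. In the same order it was 0.28, -0.14 and 0.56 for glycolysis and -0.18, 0.15 and -0.57 for the integrated stress response.

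The differences between b and a had a correlation of -0.139 between middle vector and DATG. With 2 libraries a group this cannot show whether the letters pair the samples, and the labels do not say. With a replicate block by letter the counts were 1142 against vector, 1184 against the early effect, 209 against the late effect and 13316 against lncPRESS1, and the LNCPRESS1 change was 1.38. With the letters crossed, chosen after seeing the data, the count against vector was 1433. With 2 libraries a group, a library left out leaves 1, which is then assumed to vary like the other groups. Genes under 1 CPM rest on few counts.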
